A study of Mus musculus with 8 samples.

Results

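NRF2, encoded by Nfe2l2, and 9 further genes of the cellular defence against oxidants were examined in fetal liver haematopoietic stem cells that carried 1 mutant copy of Crebbp, beside wild-type cells. The 10 genes were Nfe2l2, Keap1, Nqo1, Hmox1, Gclc, Gclm, Txnrd1, Sod1, Sod2 and Cat. Every probe set on the array whose annotation gave a single symbol, and that symbol among the 10, was taken, which gave 24 of 45037 probe sets that were not controls. Of these, 22 averaged more than 2.72 on the log2 scale, the filter for testing, and all 10 genes kept at least 1 of them.

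The series is titled for MDS, a disorder of blood formation, and DNA repair defects. The groups were Crebbp+/- and wild-type embryos, both on a C57BL/6 background. The labels give the cells as sorted Sca-1+, Lin-, AA4.1+, c-Kit++ stem cells of the fetal liver, and their age as 14.5 days post coitum in the description and 14 in the characteristics. Each genotype had 2 numbered samples, each sample combined 15 embryos, and each was measured on 2 Affymetrix mouse arrays from 12 ng of amplified total RNA. The labels do not say what part of Crebbp the mutant allele lacks, whether the 2 arrays of a sample came from separate cells, or whether a sample number marks a shared litter or day. The 2 arrays were averaged, so n = 2 samples per genotype, and p-values measure only the spread between these pooled preparations.

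NRF2 is a transcription factor that KEAP1 holds in the cytoplasm and hands to a CUL3 ubiquitin ligase for breakdown. Oxidants and electrophiles modify cysteines of KEAP1, after which NRF2 builds up, pairs with a small MAF protein and binds the antioxidant response element near its target genes. Bound NRF2 recruits CBP, the acetyltransferase that Crebbp encodes, and the comparison asks whether genes of the pathway differ where a Crebbp copy is mutant. Blood stem cells are known to keep oxidant levels low and to lose quiescence when oxidants build up.

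The core of the antioxidant response element was searched in the RefSeq promoter windows of these genes, because it is the sequence through which NRF2 reaches its targets. The search used TGACNNNGC and its reverse complement GCNNNGTCA, in windows of 250 bases before and 50 bases after each annotated start (GRCm38.p6), and looked for no other motif. The table held 10 windows of 8 of the 10 genes, and not Hmox1 or Gclc. A match lay in 4 of the 8 genes, and 14.0% of all 27025 genes in the table had one (12.4% of 32851 windows). The 4 matches follow with 8 flanking bases on each side, read 5′ to 3′ along the gene's own strand, with the match in capitals.
Nfe2l2, chr2:75704887-75704911, minus strand, 240 to 232 bases upstream: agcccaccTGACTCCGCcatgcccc
Gclm, chr3:122245415-122245439, plus strand, 134 to 126 bases upstream: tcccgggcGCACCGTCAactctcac
Sod1, chr16:90220698-90220722, plus strand, 56 to 48 bases upstream: caaggtggGCGTGGTCAgactcagg
Txnrd1, chr10:82859106-82859130, plus strand, 92 to 84 bases upstream: ggatttttGCTTTGTCAttctgaca
The Nfe2l2 match reads as the element on the gene's own strand, and those of Gclm, Sod1 and Txnrd1 read as it on the opposite strand. The Txnrd1 match lies before 1 of the 3 start sites listed for that gene. A match describes these letters only and was not measured as bound.

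The arrays were close to each other, with a median correlation over probe sets of 0.991 between repeat arrays. It was 0.988 between Crebbp+/- and wild-type arrays of the same sample number, and 0.983 between those of different numbers. Arrays of the same genotype but different samples had 0.985, below the value for different genotypes of the same number. Of 8 stem cell markers listed, 7 had a probe set with a single symbol, and all 7 were above the filter. Kit averaged 9.34 and 9.31 in Crebbp+/- samples 1 and 2, against 9.36 and 9.05 in wild-type samples 1 and 2, and Cd93, which encodes AA4.1, lay between 12.05 and 12.33 in all 4. Ly6a, which encodes Sca-1, had none and was not analysed here. None of the 7 passed an adjusted p of 0.05 by genotype (limma). At an unadjusted p under 0.05 (limma) were 3 of the 7, against 2.67% of all tested genes. All 3 were lower in both Crebbp+/- samples than in both wild-type samples. These were the stem cell transcription factor genes Meis1 at -1.26 (SE 0.40), Hlf at -0.54 (SE 0.20) and Mecom at -0.38 (SE 0.14), each with a limma adjusted p of 0.991. Hlf passed within sample number 2 (-0.78, limma adjusted p = 0.0451, a test between 2 preparations), as did 1.26% of all tested genes. The part of these stem cell markers in the values below was not tested. The brightest Crebbp probe set differed by 0.07 between Crebbp+/- and wild-type samples (SE 0.26), which does not check the genotype, since the altered part of the gene is unknown. Of the markers of other cells on the array, 1 of 7 erythroid, 3 of 12 macrophage, 5 of 9 granulocyte and monocyte and 5 of 8 hepatocyte genes were above the filter. The erythroid sum of log2 signals was 17.1 and 17.2 in Crebbp+/- samples 1 and 2, against 16.2 and 16.3 in wild-type samples 1 and 2, with Hba-a1, Alas2 and Klf1 below the filter. Slc4a1, the 1 erythroid gene above it, read 2.93 and 3.45 in Crebbp+/- samples 1 and 2, against 2.46 and 2.52 in wild-type samples 1 and 2. Its difference was 0.70 (SE 0.24, limma unadjusted p = 0.034, adjusted p = 0.991), and its part in the values below was not tested. The macrophage sum was 35.9 and 40.1 in Crebbp+/- samples 1 and 2, and 35.9 and 38.6 in wild-type samples 1 and 2. Cd5l, C1qa, Cd163, Vcam1, Timd4 and Marco were below the filter, and the 3 above it were Csf1r, C1qb and Mrc1. In the order Crebbp+/- samples 1 and 2, wild-type samples 1 and 2, Csf1r read 9.31, 10.90, 9.81 and 10.76. C1qb read 2.77, 3.96, 2.59 and 3.53, and Mrc1 2.61, 3.61, 2.42 and 2.44, in the same order. The granulocyte and monocyte sum was 43.2 and 44.1 in Crebbp+/- samples 1 and 2, against 44.6 and 44.9 in wild-type samples 1 and 2. Of the 5 genes of that list above the filter, 4 were lower and 1 higher in Crebbp+/- cells. None of the 5 had an unadjusted p under 0.05 (limma), and their part in the values below was not tested. The hepatocyte sum varied most, at 37.4 and 39.5 in Crebbp+/- samples 1 and 2, and at 22.8 and 43.6 in wild-type samples 1 and 2. Afp, which encodes alpha-fetoprotein, read 6.71 and 7.08 in Crebbp+/- cells, against 3.68 and 8.50 in wild-type cells. The 5′ minus 3′ signal of Gapdh, a measure of RNA or cDNA integrity, was -0.89 and -1.88 in Crebbp+/- samples 1 and 2, and -1.22 and -2.59 in wild-type samples 1 and 2. In both genotypes sample 2 thus had the higher hepatocyte sum and the lower Gapdh value, and their part in any value below was not tested.

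None of the 22 probe sets differed between genotypes past an adjusted p of 0.05 (limma, Benjamini-Hochberg over 22518 probe sets), and neither did any of the 22518 (0%). At an unadjusted p under 0.05 the count was 0 of 22, against 4.84% of all probe sets. The differences, Crebbp+/- minus wild type on the log2 scale, were positive for 12 probe sets and negative for 10, with a median of 0.03, and the median over all tested probe sets was 0.02. Their median size was 0.19, against 0.21 over all. Every one of the 22 intervals at 95% confidence included 0, and 10 of them lay wholly within a change of 1 log2 unit either way. The half-widths of the intervals ran between 0.24 and 1.39, so the precision ranged widely among these probe sets. In bulk RNA such as this, fewer cells of a type and less RNA per cell cannot be told apart.

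**Figure D1:**
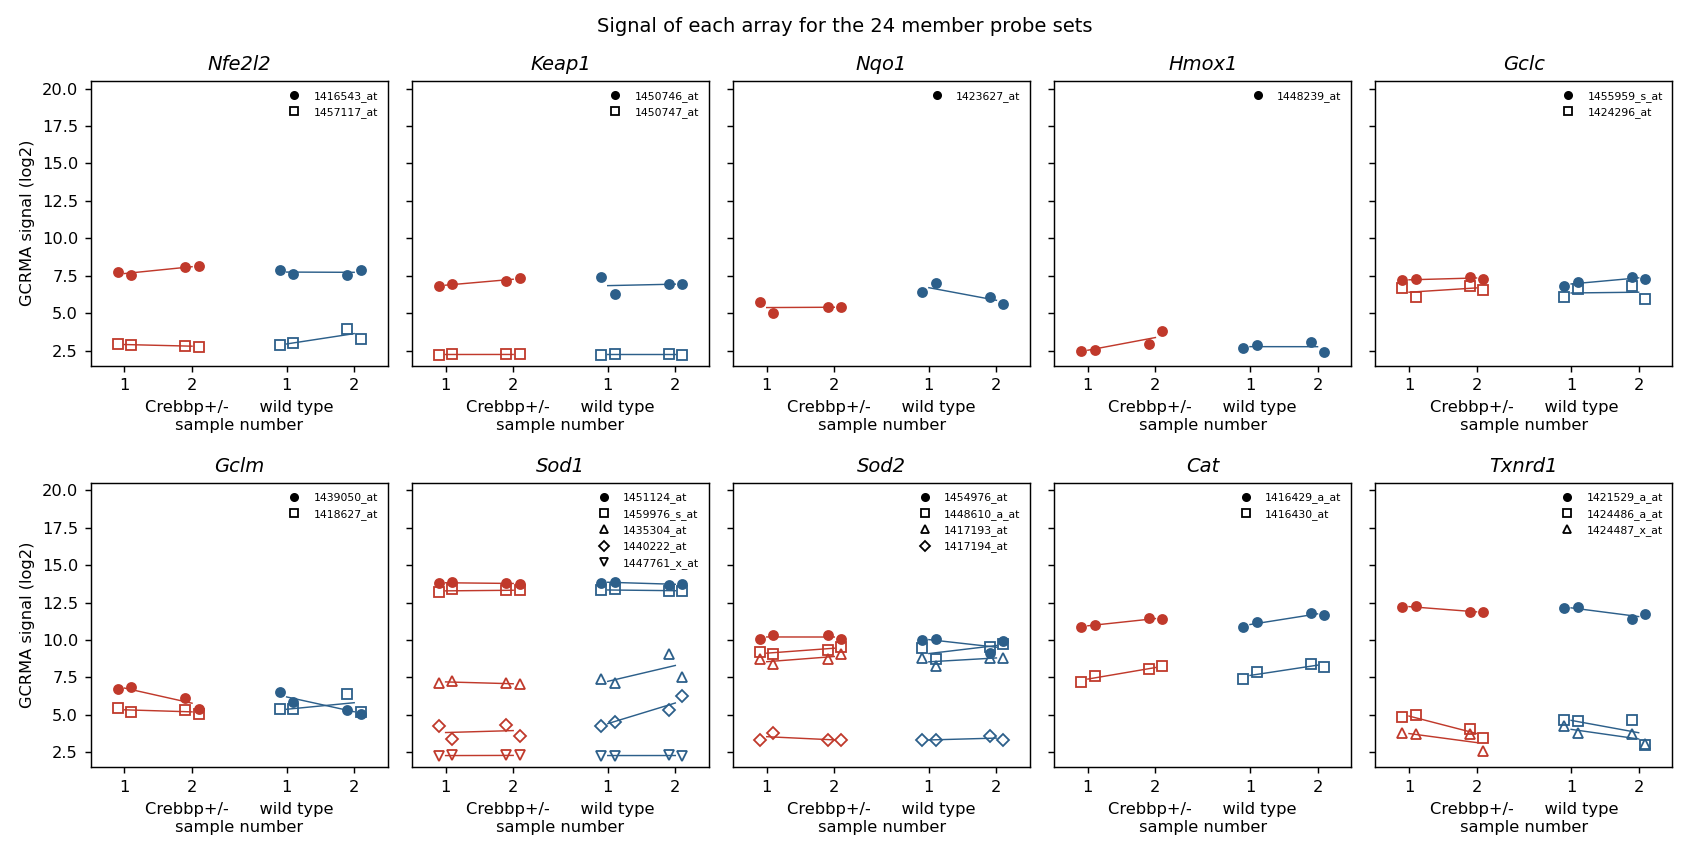
Log2 GCRMA signal of each of the 24 probe sets on the 8 arrays, with Crebbp+/- samples left of wild-type samples, a point for each array and a line that joins the means of samples 1 and 2 of a genotype. For none of the 22 tested probe sets did all 4 arrays of a genotype lie beyond all 4 of the other.

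No probe set had all 4 arrays of a genotype beyond all 4 of the other, which 6.98% of all tested probe sets had. With the 2 arrays averaged, both samples of a genotype lay beyond both of the other for 6 of 22 (27.3%), against 31.0% of all. For 5 of the 6 the Crebbp+/- samples were the lower ones: an Nfe2l2 probe set, Nqo1, a Gclm probe set and 2 of Sod1. For the last, of Sod2, they were the higher ones. These shares did not exceed those over the whole array.

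Nfe2l2 itself was read by 2 probe sets. The brighter (1416543_at) read 7.76 and 7.53 on the arrays of Crebbp+/- sample 1 and 8.07 and 8.14 on those of sample 2, against 7.88 and 7.61 in wild-type sample 1 and 7.58 and 7.88 in sample 2. Crebbp+/- sample 2 was the highest, and the other 3 samples overlapped. The means were 7.87 ± 0.32 in Crebbp+/- and 7.74 ± 0.01 in wild-type cells (SD, n = 2), a difference of 0.14 (SE 0.27, limma adjusted p = 0.994), with an interval of -0.57 to 0.85. The second probe set (1457117_at) read between 2.77 and 2.92 on the 4 Crebbp+/- arrays, and 2.88, 3.01, 3.96 and 3.31 on the wild-type arrays. It was thus close to the filter everywhere except in wild-type sample 2, and its difference was -0.44 (SE 0.29, limma adjusted p = 0.991). The pair gave opposite signs, and neither passed the test.

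Keap1, the cysteine sensor that holds NRF2 back, read 6.79 and 6.95 in Crebbp+/- sample 1 and 7.16 and 7.37 in sample 2, against 7.40 and 6.27 in wild-type sample 1 and 6.93 and 6.95 in sample 2 (1450746_at). The 2 arrays of wild-type sample 1 spanned all the others. The difference was 0.18 (SE 0.28, limma adjusted p = 0.994). Its other probe set (1450747_at) read 2.24 to 2.25 on the Crebbp+/- arrays and 2.24 on the wild-type arrays, below the filter, and was not tested.

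Nqo1 encodes a quinone reductase that is widely used as a readout of NRF2 activity. Its probe set (1423627_at) read 5.73, 5.02, 5.39 and 5.40 on the Crebbp+/- arrays, against 6.42, 6.98, 6.07 and 5.64 on the wild-type arrays. Both Crebbp+/- samples were below both wild-type samples, although 1 Crebbp+/- array was above the lowest wild-type array. The means were 5.39 ± 0.02 in Crebbp+/- and 6.28 ± 0.60 in wild-type cells (SD, n = 2). The difference of -0.90 (SE 0.38) corresponds to 0.54 of the wild-type level, with an interval of 0.27 to 1.08. It had a limma adjusted p of 0.991 and an unadjusted p of 0.069.

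Hmox1, which encodes the inducible haem oxygenase and is a target of both NRF2 and its competitor BACH1, was close to the filter. Its arrays read 2.50, 2.55, 2.95 and 3.79 in Crebbp+/- cells and 2.66, 2.87, 3.10 and 2.43 in wild-type cells (1448239_at). A single Crebbp+/- array stood above the rest. The difference was 0.19 (SE 0.32, limma adjusted p = 0.994).

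Gclc and Gclm encode the catalytic and the modifier subunit of glutamate-cysteine ligase, which makes the first and rate-limiting step of glutathione synthesis. Gclc read 7.20, 7.25, 7.43 and 7.27 on the Crebbp+/- arrays and 6.80, 7.10, 7.41 and 7.31 on the wild-type arrays (1455959_s_at), and the groups overlapped. That probe set differed by 0.13 (SE 0.28) and the second one, 1424296_at, by 0.17 (SE 0.28), with a limma adjusted p of 0.994 for each. The suffix _s_at marks a probe set that may read more than 1 transcript.

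The 2 Gclm probe sets had opposite signs. The brighter (1439050_at) read 6.72, 6.86, 6.14 and 5.42 in Crebbp+/- cells, against 6.55, 5.85, 5.36 and 5.06 in wild-type cells, a difference of 0.58 (SE 0.53, limma adjusted p = 0.991). In both genotypes sample 1 was above sample 2, by more than the genotypes differed. The other (1418627_at) read between 5.08 and 5.47 on the Crebbp+/- arrays, and 5.37, 5.37, 6.41 and 5.21 on the wild-type arrays. A single wild-type array stood apart there, and the difference was -0.32 (SE 0.30, limma adjusted p = 0.991).

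Txnrd1 encodes the cytosolic thioredoxin reductase, a selenoenzyme and NRF2 target that keeps thioredoxin reduced. Its brightest probe set (1421529_a_at) read 12.22 and 12.24 in Crebbp+/- sample 1 and 11.86 and 11.90 in sample 2, against 12.10 and 12.19 in wild-type sample 1 and 11.40 and 11.73 in sample 2. Sample 1 was above sample 2 in both genotypes, and the genotypes differed by 0.20 (SE 0.25, limma adjusted p = 0.991). The dimmer probe sets, 1424486_a_at and 1424487_x_at, differed by 0.12 (SE 0.52) and -0.26 (SE 0.35). The suffix _x_at marks probes that may bind other transcripts, and _a_at marks probes shared by variants of 1 gene.

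Sod1, the cytosolic copper and zinc superoxide dismutase, was read by 5 probe sets whose differences were not alike. The brightest (1451124_at) read 13.80, 13.84, 13.79 and 13.76 on the Crebbp+/- arrays, against 13.83, 13.88, 13.70 and 13.74 on the wild-type arrays. Its difference was 0.01 (SE 0.10) with an interval of -0.24 to 0.26, a fold change between 0.85 and 1.20. For 1459976_s_at the difference was -0.02 (SE 0.09) and the interval -0.26 to 0.23. These were the narrowest intervals among the 22, and both kept within a fold change of 0.84 to 1.20.

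The remaining Sod1 probe sets gave other values. The largest difference of the 22 was that of 1440222_at, which read 4.23, 3.41, 4.33 and 3.57 in Crebbp+/- cells, against 4.28, 4.55, 5.33 and 6.26 in wild-type cells. Both Crebbp+/- samples were below both wild-type samples, with 1 overlapping array. The means were 3.89 ± 0.09 in Crebbp+/- and 5.10 ± 0.97 in wild-type cells (SD, n = 2), a difference of -1.22 (SE 0.51, limma adjusted p = 0.991, unadjusted p = 0.065). The next, 1435304_at, read 7.15, 7.26, 7.10 and 7.05 in Crebbp+/- cells, against 7.36, 7.11, 9.08 and 7.52 in wild-type cells. Its difference was -0.63 (SE 0.42, limma adjusted p = 0.991). In both cases the highest wild-type arrays belonged to sample 2. The last, 1447761_x_at, read 2.27 to 2.30 in Crebbp+/- and 2.28 to 2.29 in wild-type cells and was below the filter.

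Sod2, the manganese superoxide dismutase of mitochondria, had 4 probe sets. The brightest (1454976_at) read 10.09, 10.31, 10.35 and 10.04 in Crebbp+/- cells, against 9.97, 10.08, 9.11 and 9.93 in wild-type cells. Both Crebbp+/- samples were above both wild-type samples, and the lowest array was an array of wild-type sample 2. The means of 10.20 ± 0.00 in Crebbp+/- and 9.77 ± 0.36 in wild-type cells (SD, n = 2) differed by 0.43 (SE 0.23, limma adjusted p = 0.991). The other 3 Sod2 probe sets gave -0.08 (SE 0.27, 1448610_a_at), 0.05 (SE 0.24, 1417193_at) and 0.05 (SE 0.21, 1417194_at), so the gap of the brightest was not seen in them.

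Cat encodes catalase, the peroxisomal enzyme that splits hydrogen peroxide. Its brighter probe set (1416429_a_at) read 10.86 and 11.03 in Crebbp+/- sample 1 and 11.44 and 11.42 in sample 2, against 10.89 and 11.17 in wild-type sample 1 and 11.80 and 11.69 in sample 2. Here sample 2 was above sample 1 in both genotypes. The genotype difference was -0.20 (SE 0.31), and that of 1416430_at was -0.20 (SE 0.40), each with a limma adjusted p of 0.994.

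**Figure D2:**
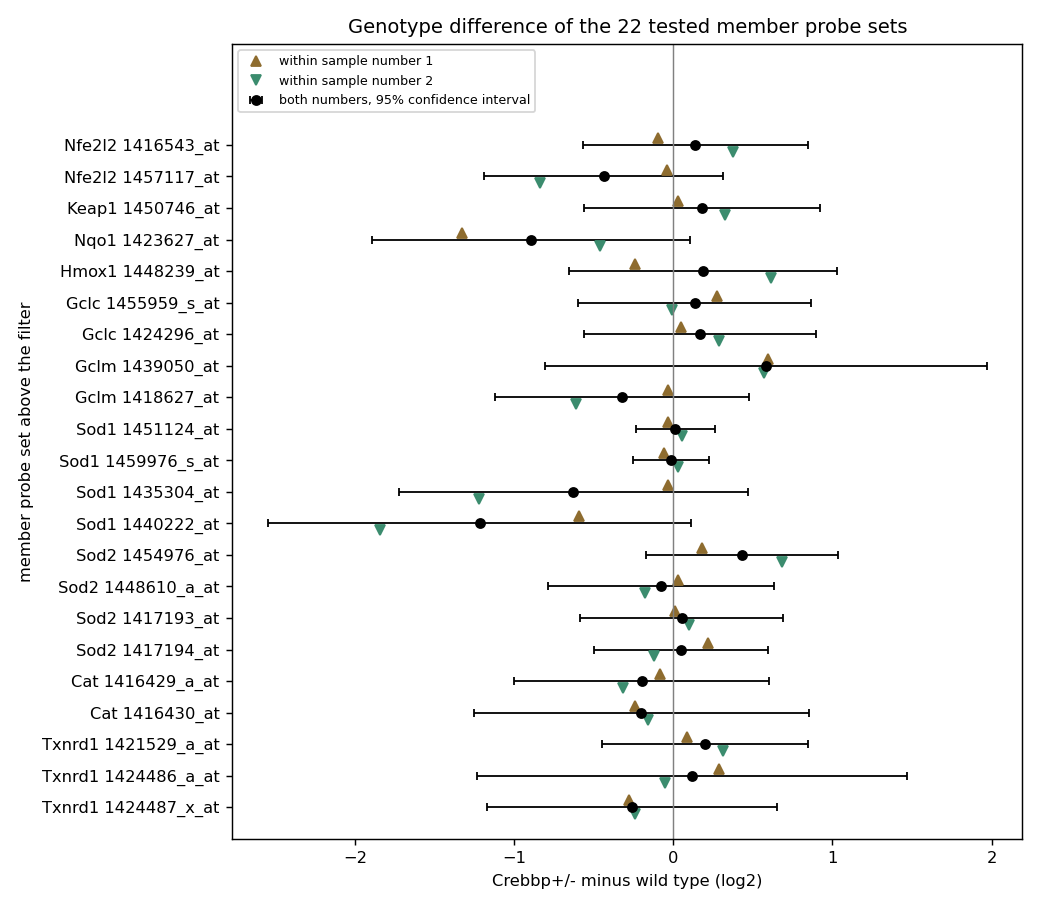
Difference between Crebbp+/- and wild-type samples for the 22 tested probe sets, in log2 units, with 95% intervals from limma (circles, n = 2 samples per genotype). Triangles give the differences within sample number 1 (pointing up) and number 2 (pointing down). All 22 intervals include 0, and they are narrowest for the 2 brightest Sod1 probe sets.

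Taken by gene, with the brightest probe set of each, 8 of the 10 differences were positive and those of Nqo1 and Cat were negative. Their median was 0.16, while 6028 of 10600 genes were positive with a median of 0.04. The members' median was 0.0075 without Crebbp+/- sample 2 and 0.07 with a gene's probe sets averaged, so the median depended on that sample and on the choice of probe set.

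Each genotype's samples carry numbers 1 and 2, and the difference within each number was fitted with all 8 arrays. Repeat arrays supply the only spread in that fit, so its p-values compare 2 preparations, not 2 genotypes. Within number 1, none of the 22 passed an adjusted p of 0.05 (limma, 0% of all probe sets), and 1 was under an unadjusted 0.05 (4.55%, against 13.5% of all). That was Nqo1, at -1.33 (SE 0.35, limma adjusted p = 0.187), and its value within number 2 was -0.46 (SE 0.35).

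Within number 2, again none of the 22 passed, while 1.08% of all probe sets did (244 of 22518, limma). Under an unadjusted 0.05 were 6 of 22 (27.3%), against 17.7% of all. Crebbp+/- minus wild type within number 2 was -1.84 for Sod1 1440222_at, -1.22 for Sod1 1435304_at, -0.84 for Nfe2l2 1457117_at and -0.32 for Cat 1416429_a_at. It was 0.68 for Sod2 1454976_at and 0.31 for Txnrd1 1421529_a_at. The lowest limma adjusted p was 0.0931, for Sod1 1440222_at. Within number 1 the same 6 probe sets had differences of -0.59, -0.04, -0.04, -0.08, 0.18 and 0.08, each of the same sign and smaller. The 6 were picked by their p within number 2, which favours large differences there, so smaller ones within number 1 follow in part from that choice.

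The difference between the 2 within-number values passed for none of the 22 and for 0% of all probe sets, with a lowest limma adjusted p of 0.645 among the 22. Under an unadjusted 0.05 were 0 of 22, against 8.13% of all. Both within-number differences had the same sign for 14 of 22 (63.6%), against 62.4% of all. Of the 14, 8 were lower and 6 higher in Crebbp+/- within both numbers. The difference was the larger within number 2 for 14 of 22, against 54.5% of all tested probe sets.

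Cat and Txnrd1 differed between sample numbers in the same way in both genotypes. Sample 2 exceeded sample 1 in Cat 1416429_a_at by 0.48 in Crebbp+/- and 0.71 in wild-type cells, and Cat 1416430_at by 0.77 and 0.69. Sample 2 minus sample 1 was -0.35 in Crebbp+/- and -0.58 in wild-type cells for Txnrd1 1421529_a_at, and its 2 dimmer probe sets were lower in sample 2 of both genotypes as well. For 1424486_a_at in wild-type cells, that rested on 1 array of sample 2, at 2.99 beside 4.63 on the other. The same held for 1424487_x_at in Crebbp+/- cells, at 2.58 beside 3.72. For Gclm 1439050_at, sample 2 minus sample 1 was -1.01 in Crebbp+/- and -0.99 in wild-type cells. The other Gclm probe set, 1418627_at, did not share this, at -0.14 in Crebbp+/- and 0.44 in wild-type cells. For Cat 1416429_a_at and Txnrd1 1421529_a_at the arrays of sample 2 and of sample 1 did not overlap in either genotype, and both number gaps exceeded the genotype difference of 0.20 in size. In all, number 2 lay on the same side of number 1 in both genotypes for 14 of 22 (63.6%), against 71.6% of all tested probe sets. The Gapdh value and the hepatocyte and macrophage sums given above ran with the sample numbers too, and their part was not tested. Not every gene of the 2 marker lists did so, Alb in Crebbp+/- cells being an exception.

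**Figure D3:**
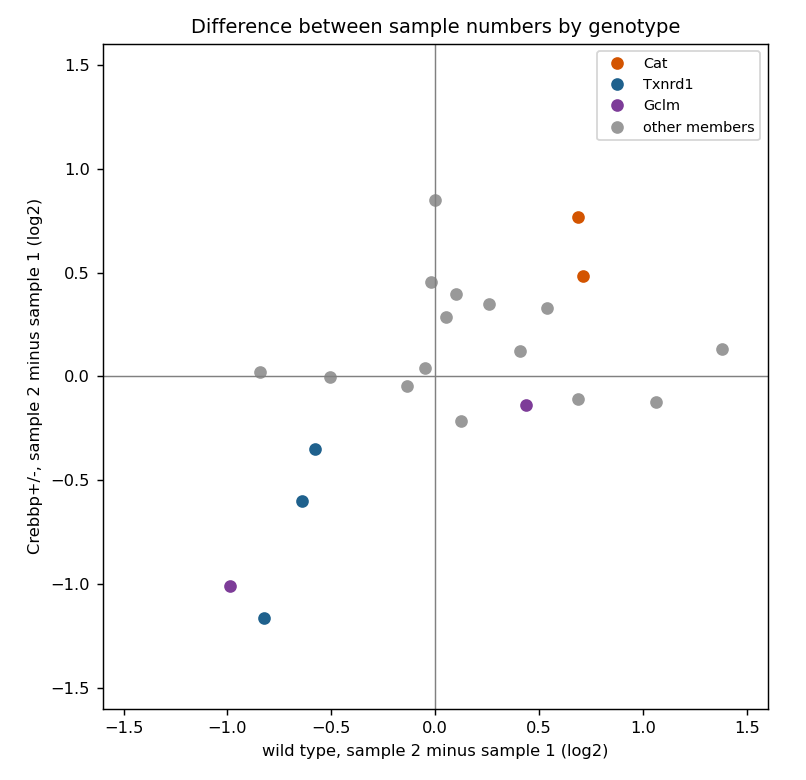
Sample 2 minus sample 1 in Crebbp+/- cells (vertical axis) against the same in wild-type cells (horizontal axis), both in log2 units, for the 22 tested probe sets. Both Cat probe sets lie at the upper right, and all 3 Txnrd1 probe sets and 1 of Gclm lie at the lower left.

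Repeat arrays of the same sample differed by more than the genotypes for 20 of the 22 probe sets (90.9%), comparing the largest of the 4 repeat gaps with the size of the genotype difference. That held for 85.4% of all tested probe sets. The exceptions were Nqo1, with a largest gap of 0.71 against a difference of 0.90 in size, and Sod1 1440222_at, with 0.93 against 1.22. The widest gap, of 1.63, was in Txnrd1 1424486_a_at on the arrays of wild-type sample 2.

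The wider pathway was described with 8 lists that hold 82 further genes, 71 of them above the filter, each by its brightest probe set. None passed an adjusted p of 0.05 (limma), and 1 (1.41%) had an unadjusted p under 0.05, against 2.67% of 10600 genes. The differences were positive for 27 and negative for 44, with a median of -0.04. The medians of 6 of the 8 lists took both signs when single samples were left out. The exceptions were glutathione synthesis and use, with a range of -0.28 to -0.018, and haem breakdown and iron storage, with a range of -0.17 to -0.022.

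Among the 14 partners and regulators of NRF2, 6 differences were positive and 8 negative (median -0.04). Gsk3b, a kinase that marks NRF2 for breakdown independently of KEAP1, averaged 12.65 ± 0.20 in Crebbp+/- and 12.43 ± 0.25 in wild-type cells (SD, n = 2), a difference of 0.22 (SE 0.18). Rbx1, a subunit of the CUL3 ligase, had the largest difference of that list, at -0.29 (SE 0.27). Its signal was close to the filter, at 3.15 in both Crebbp+/- samples, against 3.72 and 3.14 in wild-type samples 1 and 2. Only wild-type sample 1 thus stood apart.

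Of 15 tested genes of glutathione synthesis and use, 4 were positive and 11 negative (median -0.08). Mgst2, a microsomal glutathione transferase, was the 1 gene of the 71 with an unadjusted p under 0.05. It read 6.93 and 6.69 in Crebbp+/- samples 1 and 2, against 7.72 and 7.90 in wild-type samples 1 and 2. The samples of the genotypes did not overlap, and the difference was -1.0 (SE 0.26, limma unadjusted p = 0.013, adjusted p = 0.991). Gpx1, the abundant cytosolic glutathione peroxidase, averaged 12.10 ± 0.10 in Crebbp+/- and 12.16 ± 0.17 in wild-type cells (SD, n = 2).

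The thioredoxin, peroxiredoxin and glutaredoxin list had 15 tested genes, 6 positive and 9 negative (median -0.03). Txn1, the substrate of TXNRD1, averaged 12.55 ± 0.02 in Crebbp+/- and 12.60 ± 0.09 in wild-type cells (SD, n = 2). The largest difference there was that of Txnrd3, at 0.33 (SE 0.38). Prdx1, Prdx5 and Prdx6 had no probe set with a single symbol and were not analysed here.

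Among 3 other superoxide genes, Cyba, a subunit of the NADPH oxidases that make superoxide, averaged 7.53 ± 0.15 in Crebbp+/- and 8.02 ± 0.15 in wild-type cells (SD, n = 2), a difference of -0.49 (SE 0.25). Of the 6 genes that supply NADPH, 2 were positive and 4 negative. Tkt, which encodes transketolase, differed by -0.11 (SE 0.14), and Idh1, which encodes a cytosolic isocitrate dehydrogenase, by 0.29 (SE 0.20). None of these passed the test.

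All 4 tested genes of haem breakdown and iron storage were negative (median -0.13). They included Fth1, the ferritin heavy chain, at -0.07 (SE 0.12) and Blvrb, a biliverdin reductase, at -0.25 (SE 0.35). The Blvrb signal averaged 3.03 over the 8 arrays, close to the filter. Among 5 genes of quinone and xenobiotic handling, 2 were positive and 3 negative. Nqo2, the paralog of Nqo1, differed by 0.54 (SE 0.36), and Aldh2, the mitochondrial aldehyde dehydrogenase, by -0.33 (SE 0.16). Nqo2 and Nqo1 thus had opposite signs, neither of them past the test.

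The FOXO, sestrin and other redox regulators were 6 positive and 3 negative of 9 (median 0.08). Park7, which encodes the redox-sensitive protein DJ-1, differed by 0.08 (SE 0.15). Tigar, which directs glucose carbon towards NADPH production, differed by 0.37 (SE 0.44). Genes listed but below the filter were Slc7a11, Gpx7, Sod3, Me1, Slc40a1 and Ephx1.

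**Figure D4:**
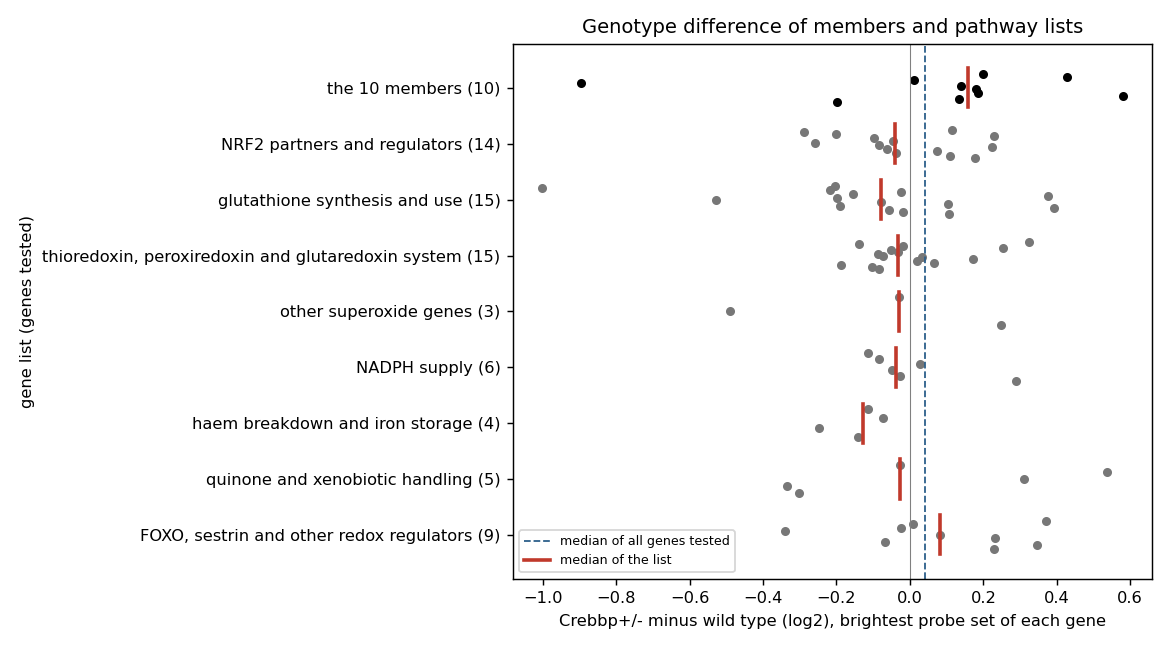
Difference between Crebbp+/- and wild-type samples, in log2 units, of the brightest probe set of each tested gene in the 8 pathway lists and of the 10 member genes, with a bar at each list's median and a dashed line at the median of all 10600 genes (0.04). The points of each list lie on both sides of 0 except for the 4 genes of haem breakdown and iron storage.

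The genes whose values over the 8 arrays ran closest to Nfe2l2 1416543_at, among 10590 genes compared, were Mad1l1 (Pearson r = 0.972), a spindle checkpoint gene, Heatr1 (r = 0.968), a ribosome biogenesis factor, and Ticrr (r = 0.947), which acts in the start of DNA replication. The 8 arrays come from 4 preparations, so these values only describe which genes varied over the arrays as Nfe2l2 did.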

How the data were processed

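RNA of 4 preparations, 2 Crebbp+/- and 2 wild type, was measured on 8 arrays. The deposited values are log2 signals made by the authors with GCRMA, per the submitters' processing notes. GCRMA subtracts background by probe sequence and sets the arrays to a common distribution, so low signals gather just above 2 and their differences are compressed. No scanner files were used here, and the number of arrays limits the precision. Genes were named from the platform annotation (34945 of 45037 probe sets with 1 symbol, 64 controls removed). Of those 34945 probe sets, 34741 had a gene identifier that matched the GRCm38.p6 RefSeq table.

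Repeat arrays were averaged and fitted with limma 3.58.1 in R 4.3.3 (eBayes with trend) over the 22518 probe sets above the median mean, and p-values were adjusted by Benjamini-Hochberg. An exact two-sided permutation test of 2 against 2 samples cannot go below 0.333 and was not used. Differences within a sample number, and between numbers, used the 8 arrays in a model with a mean for each sample. The fits were tested on simulated data with normal noise and no shift between sample numbers. That test therefore does not cover data with shared differences between numbers, such as these.

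In each list the gene with the largest difference and that with the highest mean were named, and also the 3 genes most correlated with Nfe2l2. Members and lists were chosen with earlier results of these data known. Alternatives covered the unit of replication, a block for the sample number, other filters, quantile normalization or centring, the variance model, a floor on low signals, the Gapdh 5′ to 3′ signal as a covariate, and fits without single samples or arrays.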

Additional observations from a re-analysis of the deposited data

Results flagged for a closer look

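In 7 of 44 sets of 4 arrays (a probe set in a genotype), a single array lay far from the other 3 by Dixon's criterion. Chance gives this in about 5% of sets of 4 independent arrays. The arrays here are repeats of 2 samples, so the 4 are not independent and that rate does not apply. The share over all tested probe sets was not computed, so the count does not set these genes apart from the array.

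Of the Crebbp+/- arrays, array 2 of sample 1 was the highest for Sod2 1417194_at at 3.77 (next 3.33), and array 2 of sample 2 the lowest for Txnrd1 1424487_x_at at 2.58 (next 3.72). In wild-type cells, array 1 of sample 2 was the highest for Gclm 1418627_at at 6.41 (next 5.37) and for Sod2 1417194_at at 3.58 (next 3.33), and the lowest for Sod2 1454976_at at 9.11 (next 9.93). Array 2 of wild-type sample 2 was the lowest for Txnrd1 1424486_a_at at 2.99 (next 4.58), and array 2 of wild-type sample 1 for Sod2 1417193_at at 8.27 (next 8.80). Of the 7, 4 fell on wild-type sample 2, the sample with the lowest Gapdh 5′ minus 3′ signal, and a link between them was not tested.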

How the results depend on the processing

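No member passed an adjusted p of 0.05 by genotype, within a sample number or in the difference between numbers under any setting that was run. By genotype the lowest adjusted p among members was 0.991, and 0.198 with the replicate block (Sod1 1440222_at, at -1.22), 0.292 with the Gapdh covariate, 0.344 with 8 arrays taken as independent and 0.631 without wild-type sample 1. Differences between sample numbers correlated at 0.55 between genotypes over probe sets, but the labels do not say that numbers pair the samples.

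Of 496 alternative values, 44 changed sign. Many of the 496 could not, since another filter, variance model, block or unit of replication leaves the difference itself unchanged. The count is therefore no measure of how stable the signs were. With the Gapdh covariate these were Cat 1416429_a_at at 0.064, Cat 1416430_at at 0.11, Txnrd1 1421529_a_at at -0.0093, Txnrd1 1424486_a_at at -0.30, Sod2 1448610_a_at at 0.12 and Sod1 1451124_at at -0.032. The cause was not tested.

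The next count was not made over the whole array, so it does not set these genes apart. Leaving out single samples or arrays turned the sign for 15 of 22 probe sets at least once. Their ranges were -0.56 to 0.16 for Cat 1416429_a_at, -0.58 to 0.18 for Cat 1416430_at, -0.051 to 0.39 for Gclc 1424296_at, -0.070 to 0.34 for Gclc 1455959_s_at, -0.24 to 0.61 for Hmox1, -0.10 to 0.46 for Keap1 and -0.090 to 0.37 for Nfe2l2 1416543_at. They were -0.058 to 0.079 for Sod1 1451124_at, -0.062 to 0.032 for Sod1 1459976_s_at, -0.12 to 0.23 for Sod2 1417193_at, -0.067 to 0.16 for Sod2 1417194_at and -0.34 to 0.19 for Sod2 1448610_a_at. For Txnrd1 they were -0.092 to 0.49 (1421529_a_at), -0.46 to 0.70 (1424486_a_at) and -0.58 to 0.061 (1424487_x_at). The other 7 kept their sign under each setting, among them Nqo1 (-1.32 to -0.47), Sod1 1440222_at (-1.91 to -0.53) and Sod2 1454976_at (0.18 to 0.68).

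Calls over all probe sets within number 2 numbered 244, against 18 without a filter, 853 in the upper 25% by mean, 1 without the trend and 0 to 35 without an array. Within number 1 they numbered 0, against 24 without a filter and 122 in the upper 25%. By genotype there were 0, and 1 with 8 arrays taken as independent. With 2 pooled samples per genotype the intervals reached between 0.24 (Sod1 1459976_s_at) and 1.39 log2 units (Gclm 1439050_at) either way. A difference smaller than its half-width could not be told from 0. Larger ones could also go uncalled, since the intervals are unadjusted and calls were adjusted over 22518 probe sets. Mgst2, at -1.0 with an interval of -1.68 to -0.32, did not pass.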
